A study of Mus musculus with 8 samples.

Results

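Genes of the contractile and supporting cells of blood vessels were followed through wounding of mouse skin, 9 in all: Myh11, Lmod1, Mylk, Notch3, Rgs5, Cspg4, Mcam, Kcnj8 and Abcc9. They were chosen by name as markers of vascular mural cells, and all 9 symbols were found among the 53700 gene identifiers of the count table. RNA had been recovered with an antibody against GFP from GFP-tagged polysomes, in mice of genotype AdipoqCreER;R26-NuTRAP, and was sequenced in 8 libraries. The mice of every group had received tamoxifen. The recombinase is driven from the adiponectin gene, so that the ribosome tag is placed in cells in which that gene's promoter is active, and the labels give the cell type as adipocyte. The groups were uninjured skin (n = 3), skin 3 days after wounding (n = 2) and skin 7 days after wounding (n = 3), with the times read from an abbreviation in the sample titles. Wounds were made at 7 to 9 weeks of age, as 4 full-thickness punches of 5 mm, with 20 ng of RNA going into each library. The labels do not say whether each library came from its own animal, so p-values measure the spread between these libraries only.

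Mural cells wrap the endothelium: smooth muscle cells around arteries and veins, pericytes around capillaries. Smooth muscle contracts when myosin light chain kinase phosphorylates the light chain of its myosin, and leiomodin seeds the actin filaments on which that myosin pulls. NOTCH3, stimulated by ligands on endothelial cells, maintains the mural state, and PDGF-B from endothelium recruits pericytes through PDGFRB. Pericytes also carry an ATP-sensitive potassium channel, built from the pore subunit Kir6.1 (Kcnj8) and the sulfonylurea receptor SUR2 (Abcc9), and the G protein regulator Rgs5. Not all of these genes are confined to mural cells: NG2 (Cspg4) and CD146 (Mcam) are surface proteins of several other cell types too, and striated muscle uses SUR2.

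Libraries held 5308959 to 17751689 counts. Values are CPM, counts scaled to a common library size after normalisation by the trimmed mean of M values, and a gene was called when its Benjamini-Hochberg adjusted p over all 18656 tested genes, from edgeR's quasi-likelihood test, was below 0.05. Adipoq, which checks the adipocyte label, lay between 1802.72 and 5404.49 CPM and Plin1, a lipid droplet protein, between 358.87 and 876.05 CPM in all libraries. Both were lowest in day 7 replicates 1 and 2. Adipoq was at 1802.72 and 2788.63 CPM there against 4908.20 to 5404.49 CPM in uninjured skin, and Plin1 at 358.87 and 503.51 CPM against 848.76 to 876.05 CPM. The libraries that stood apart were day 3 replicate 1 on the second principal component (-97.72, others -11.32 to 30.33) and day 7 replicate 3, at 8.43 on the first component where the other day 7 libraries lay at 113.57 and 82.46. The column headers carry a numeric prefix that is common to a group and differs between groups, so that what it marks and the group cannot be told apart. In polysome RNA pooled over many cells, as here, more cells of a type and more RNA per cell cannot be told apart either. The samples include no library of RNA from before the antibody step, so RNA carried over from untagged cells was not measured.

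At day 7 against uninjured skin, 3 of the 9 genes rose, Myh11, Notch3 and Lmod1, and none fell. Across the whole table, 7.67% of tested genes were called in that comparison, 5.9% as higher and 1.77% as lower. The median log2 fold change of the 9 genes was 1.11, beside 0.04 for all tested genes. Mcam had the opposite sign, and its adjusted p of 0.0501 lay at the threshold. An unadjusted p below 0.05 was reached by 6 of the 9 genes and by 26.7% of all tested genes. In 3 of the 9 every day 7 library lay above every uninjured one (Myh11, Lmod1 and Kcnj8), as in 16.7% of all tested genes, and in 1, Mcam, every one lay below, as in 13.5%. All 9 passed the filter on low counts.

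**Figure D1:**
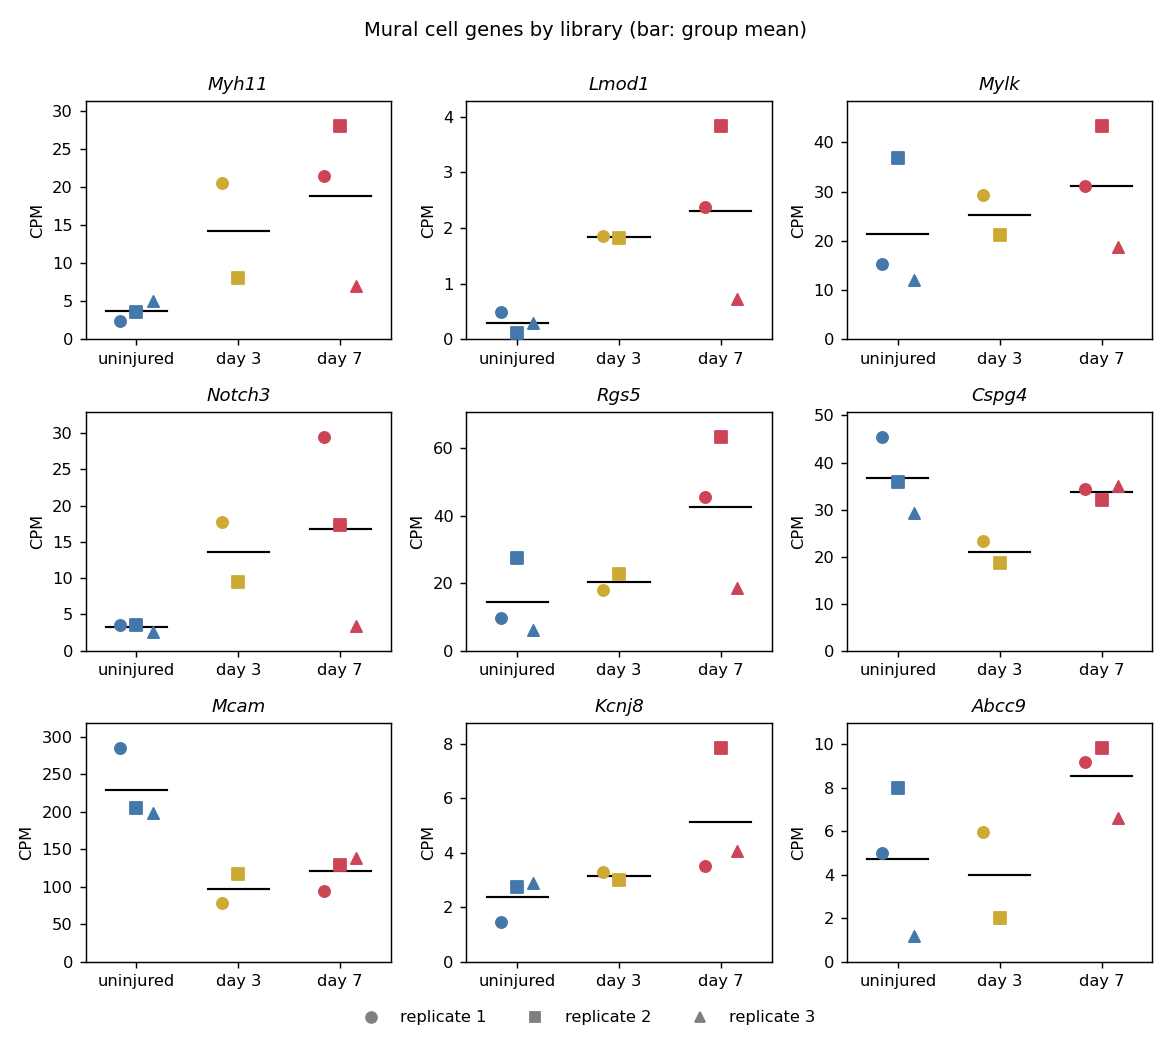
CPM, the normalised count of each gene (vertical axes, linear, from 0) of the 9 genes in each library of uninjured skin and of skin at day 3 and day 7 after wounding, with a marker shape per replicate and a bar at the group mean. Day 7 replicate 3 is the lowest of the day 7 libraries for Myh11, Lmod1, Mylk, Notch3, Rgs5 and Abcc9, and Mcam is highest in the 3 uninjured libraries.

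Promoter windows are shown for Lmod1 and Notch3, called higher at day 7, and for Mcam, which had the opposite sign, so that their base composition can be set side by side. They are RefSeq windows on GRCm38.p6 of 250 bases before and 50 bases after the start of the gene, printed 5′ to 3′ on the strand of the gene, with GGGCGG, searched on both strands and also read as CCGCCC, in capitals. The windows are chr1:135324563-135324862 (plus strand), chr17:32166841-32167140 (minus strand) and chr9:44134408-44134707 (plus strand).
Lmod1: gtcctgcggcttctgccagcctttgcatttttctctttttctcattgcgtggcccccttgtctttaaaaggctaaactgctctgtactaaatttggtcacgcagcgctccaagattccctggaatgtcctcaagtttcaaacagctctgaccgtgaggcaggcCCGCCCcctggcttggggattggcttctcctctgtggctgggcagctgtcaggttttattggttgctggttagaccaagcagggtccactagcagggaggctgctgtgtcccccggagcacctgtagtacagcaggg
Notch3: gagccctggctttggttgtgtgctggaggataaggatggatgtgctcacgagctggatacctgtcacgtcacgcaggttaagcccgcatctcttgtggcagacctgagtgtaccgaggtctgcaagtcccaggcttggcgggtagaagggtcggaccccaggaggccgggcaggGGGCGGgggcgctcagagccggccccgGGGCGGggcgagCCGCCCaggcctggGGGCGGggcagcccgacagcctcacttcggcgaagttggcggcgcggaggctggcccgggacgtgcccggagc
Mcam: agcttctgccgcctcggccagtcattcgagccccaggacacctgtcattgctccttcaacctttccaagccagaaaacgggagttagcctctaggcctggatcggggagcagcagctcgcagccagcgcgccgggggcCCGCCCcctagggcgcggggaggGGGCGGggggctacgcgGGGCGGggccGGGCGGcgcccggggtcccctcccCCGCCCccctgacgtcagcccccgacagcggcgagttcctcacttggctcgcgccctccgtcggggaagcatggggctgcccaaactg
The Lmod1 window holds 1 such match and 55% G and C, that of Notch3 4 matches and 70%, and that of Mcam 5 matches and 72.7%, where the median of all 32851 windows of this length was 52.7% and 35.7% held the motif. Windows were found for 8 of the 9 genes, and 5 of the 8 held GGGCGG. The gene without a window was Myh11, so that no motif was searched for there. The CArG box, the binding motif of serum response factor in smooth muscle genes, was not in any of the 8 windows and was in 1.63% of all windows. The letters TGGGAA, the core read by the Notch partner RBPJ, were in those of Kcnj8 and Abcc9, and in 25.6% of all windows. All motifs were searched on both strands, and matches of different motifs did not overlap. A match is a string of letters and not a shown binding site.

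Myh11 encodes the myosin heavy chain of smooth muscle. It was at 2.44, 3.61 and 5.05 CPM in uninjured skin, 20.56 and 8.02 CPM at day 3, and 21.51, 27.99 and 6.95 CPM at day 7. Every wound library lay above every uninjured one. The day 7 mean of 18.8 ± 10.8 CPM (SD, n = 3) stood against 3.70 ± 1.31 CPM (n = 3) in uninjured skin, a 5.11-fold rise with a log2 fold change of 2.35 ± 0.54 (SE, edgeR adjusted p = 0.0277). The table places the gene (ENSMUSG00000018830.11) on the minus strand of chromosome 16, from 14012399 to 14109236. Gene positions here and below are those of the table, whose build is not settled, and are not on the scale of the GRCm38.p6 promoter windows.

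Lmod1 encodes leiomodin 1, the leiomodin of smooth muscle. It was scarce, with 4, 2 and 2 counts in uninjured libraries, 9 and 17 counts at day 3 and 21, 41 and 6 counts at day 7. In CPM it was at 0.49, 0.12 and 0.29 in uninjured skin, 1.85 and 1.82 at day 3, and 2.38, 3.83 and 0.72 at day 7. Again no wound library reached down to the uninjured range. The log2 fold change at day 7 was 3.01 ± 0.80 (edgeR adjusted p = 0.0449), a value that rests on 8 counts over the uninjured libraries. Lmod1 (ENSMUSG00000048096.8) lies on the plus strand of chromosome 1, from 135252545 to 135295803.

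Mylk, the myosin light chain kinase of smooth and non-muscle cells, did not pass. Its values were 15.25, 36.75 and 12.13 CPM in uninjured skin, 29.41 and 21.28 CPM at day 3, and 31.13, 43.30 and 18.81 CPM at day 7. The groups overlapped, because uninjured replicate 2 held more than day 7 replicates 1 and 3. The log2 fold change at day 7 was 0.53 ± 0.42 (edgeR adjusted p = 0.435).

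Notch3, the receptor of the mural Notch pathway, was at 3.54, 3.49 and 2.60 CPM in uninjured skin, 17.68 and 9.52 CPM at day 3, and 29.43, 17.36 and 3.35 CPM at day 7. Day 7 replicate 3 lay inside the uninjured range, and the other wound libraries lay above it. The rise at day 7 was 5.16-fold, to 16.7 ± 13.1 CPM against 3.21 ± 0.53 CPM in uninjured skin (log2 fold change 2.37 ± 0.63, edgeR adjusted p = 0.0438). Notch3 (ENSMUSG00000038146.9) lies on the minus strand of chromosome 17, from 32339794 to 32385826, and overlaps Gm17276 on the other strand, which had 0 to 12 counts per library.

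Rgs5, which shortens G protein signals and marks pericytes, was at 9.76, 27.44 and 6.21 CPM in uninjured skin, 18.10 and 22.67 CPM at day 3, and 45.51, 63.27 and 18.69 CPM at day 7. Its highest values were those of day 7 replicates 1 and 2, while uninjured replicate 2 exceeded day 7 replicate 3. The log2 fold change of 1.53 ± 0.53 at day 7 did not pass (edgeR adjusted p = 0.1001). Without uninjured replicate 2 it was 2.41 and passed (edgeR adjusted p = 0.0337), and without day 7 replicate 3 it was 1.88 and passed too (edgeR adjusted p = 0.0269). Over all 15 alternative settings its adjusted p ran from 5.48e-05 to 0.319, with 5 calls. In uninjured replicate 2 the endothelial cadherin Cdh5 was also high, at 74.66 CPM against 2.07 and 3.03 CPM in the other uninjured libraries, whereas the endothelial Pecam1 was at 59.65 CPM against 42.57 and 50.84 CPM. Their part in the Rgs5 value was not tested.

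Both subunits of the vascular potassium channel were low. Kcnj8, the pore, was at 1.46, 2.76 and 2.89 CPM in uninjured skin, 3.29 and 2.99 CPM at day 3, and 3.51, 7.84 and 4.07 CPM at day 7. All wound libraries lay above the uninjured ones, but by small margins, and the log2 fold change at day 7 was 1.11 ± 0.48 (edgeR adjusted p = 0.165). Abcc9, the regulatory subunit, was at 5.00, 7.96 and 1.16 CPM in uninjured skin, 5.96 and 2.03 CPM at day 3, and 9.17, 9.80 and 6.59 CPM at day 7. Its groups overlapped and it did not pass at day 7 (log2 fold change 0.83 ± 0.60, edgeR adjusted p = 0.389). The genes are neighbours on the minus strand of chromosome 6, Kcnj8 from 142510563 to 142517340 and Abcc9 from 142533588 to 142648041.

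For the surface proteins the estimates at day 7 were negative. Mcam, an adhesion molecule of the immunoglobulin family, was at 284.69, 205.73 and 197.85 CPM in uninjured skin, 78.35 and 116.75 CPM at day 3, and 94.75, 128.96 and 138.71 CPM at day 7. Every uninjured library held more of it than any wound library. The mean was 120.8 ± 23.1 CPM at day 7 against 229.4 ± 48.0 CPM in uninjured skin, a log2 fold change of -0.93 ± 0.25 that missed the threshold (edgeR adjusted p = 0.0501, unadjusted p = 0.00387). It passed with DESeq2 size factors in edgeR (adjusted p = 0.0453) and in DESeq2's own test (adjusted p = 0.0081). In all, 9 of 15 alternative settings called it lower, with adjusted p-values of 0.0081 to 0.1932 over the 15. Mcam (ENSMUSG00000032135.16) lies on the plus strand of chromosome 9, from 44045766 to 44054024, and shares 17 bases with Gm10687 of the minus strand, which had 82 to 356 counts per library.

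Cspg4, the NG2 proteoglycan, was at 45.37, 35.77 and 29.17 CPM in uninjured skin, 23.24 and 18.60 CPM at day 3, and 34.42, 32.10 and 34.98 CPM at day 7. Day 7 values lay within the uninjured range, with a log2 fold change of -0.12 ± 0.23 (edgeR adjusted p = 0.756), and both day 3 libraries lay below all others.

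Taken per kilobase of exon, which allows levels of different genes to be compared, Mcam was the most abundant of the 9 in every group, at 68.5 ± 14.3 CPM per kilobase in uninjured skin (SD, n = 3). Rgs5 (3.18 ± 2.50), Cspg4 (3.08 ± 0.68) and Mylk (1.90) followed, and their order lay within the spread between libraries. After them came Kcnj8 (0.93), Abcc9 (0.56), Myh11 (0.49) and Notch3 (0.40), neighbours that likewise did not differ beyond their spread (nor did Mylk and Kcnj8), and last Lmod1 at 0.076 ± 0.046 CPM per kilobase. At day 3 the levels per kilobase were 29.1 for Mcam and 4.48 for Rgs5, between 1.23 and 2.25 for Mylk, Myh11, Cspg4, Notch3 and Kcnj8, and 0.48 and 0.46 for Abcc9 and Lmod1. At day 7 the level of Mcam was 36.1 ± 6.89 CPM per kilobase and that of Rgs5 9.35 ± 4.94. Cspg4 (2.84), Mylk (2.76), Myh11 (2.48), Notch3 (2.07) and Kcnj8 (2.02) did not differ beyond the spread of their neighbours at that time, and neither did Abcc9 (1.02) and Lmod1 (0.58) beneath them.

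**Figure D2:**
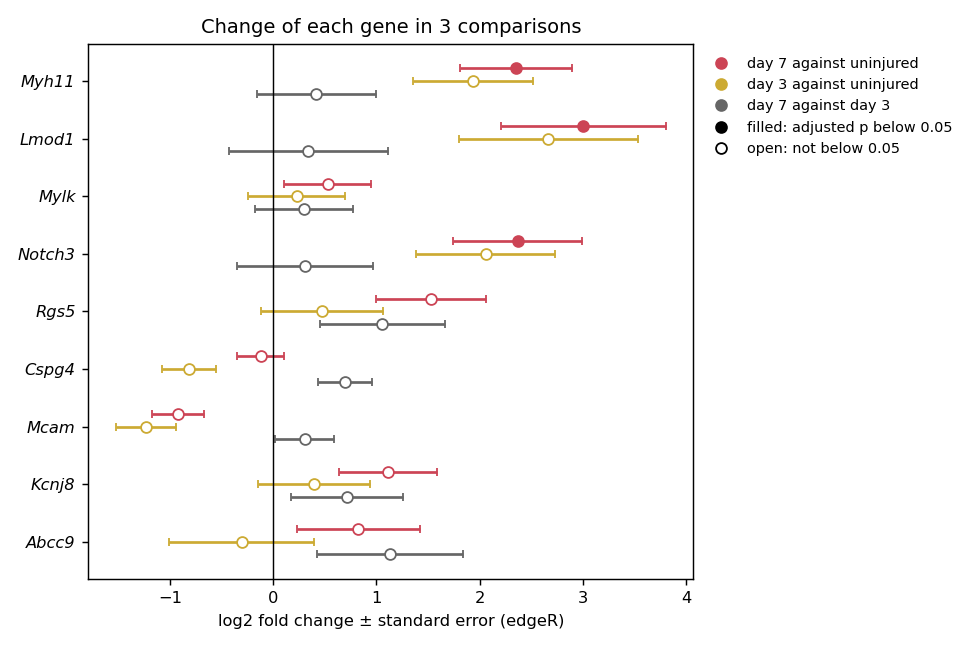
Log2 fold change (horizontal axis) with its standard error for each of the 9 genes in day 7 against uninjured, day 3 against uninjured and day 7 against day 3. Filled points have an edgeR adjusted p below 0.05. They are those of Myh11 (2.35), Lmod1 (3.01) and Notch3 (2.37) at day 7 against uninjured.

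At day 3 against uninjured skin none of the 9 genes was called by edgeR, where 0.0107% of tested genes were called in the whole table. The estimates for Myh11 (1.94 ± 0.58), Notch3 (2.06 ± 0.67) and Lmod1 (2.67 ± 0.87) on the log2 scale were nearly those of day 7, and their adjusted p-values were 0.241, 0.265 and 0.265. Mcam had -1.23 ± 0.29 (adjusted p = 0.181) and Cspg4 -0.82 ± 0.26 (adjusted p = 0.262). These 5 genes had an unadjusted p below 0.05, as 13% of all tested genes did. DESeq2 called 2 of the 9 at day 3, Myh11 as higher (log2 1.97, adjusted p = 0.0463) and Mcam as lower (log2 -1.22, adjusted p = 0.0101). Over the 15 alternative settings the adjusted p ran from 0.000646 to 0.7511 for Myh11 and from 0.00935 to 0.5694 for Mcam. The median of the 9 was 0.40, beside 0.02 for all tested genes. In 4 genes both day 3 libraries lay above all uninjured ones (Myh11, Notch3, Lmod1 and Kcnj8), and in 2 below (Mcam and Cspg4). The shares of all tested genes were 16.9% and 17.2%.

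Day 7 against day 3 gave no call among the 9 either, beside 0.0858% of tested genes (0.0643% higher and 0.0214% lower). All 9 estimates were positive, with a median log2 difference of 0.42 beside 0.08 for all tested genes. In Cspg4, Kcnj8 and Abcc9 every day 7 library lay above both day 3 libraries, as in 14.2% of all tested genes. Cspg4 was the 1 gene with an unadjusted p below 0.05 (11% of all tested genes), with 33.8 ± 1.53 CPM at day 7 (n = 3) against 20.9 ± 3.28 CPM at day 3 (n = 2), a log2 difference of 0.70 ± 0.26 (edgeR adjusted p = 0.403). For Abcc9 the log2 difference was 1.13 ± 0.71 and for Rgs5 1.06 ± 0.61 (adjusted p = 0.567 and 0.541). DESeq2 called none of the 9 here. Both comparisons with uninjured skin share the same uninjured libraries.

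The calls at day 7 rested on few libraries. Myh11, Notch3 and Lmod1 each lost theirs without any 1 of the uninjured libraries and without day 7 replicate 1 or 2, where adjusted p-values were 0.0625 to 0.1125 for Myh11, 0.0991 to 0.1949 for Notch3 and 0.0959 to 0.1771 for Lmod1. Lmod1 lost its call also without either day 3 library (adjusted p = 0.0530 each). Without day 7 replicate 3, where 4055 of 18469 tested genes were called, 5 of the 9 were: the same 3, Rgs5 as higher and Mcam as lower (log2 -1.03, adjusted p = 0.0268). Over all 15 alternative settings at day 7 the log2 fold change ran from 1.97 to 2.75 for Myh11, from 1.67 to 2.85 for Notch3 and from -1.03 to -0.75 for Mcam. That of Lmod1, tested in 13 of them, ran from 2.44 to 3.55.

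Partners of the smooth muscle apparatus split in direction at day 7. Of 20 tested genes on that list, 7 rose and 4 fell, with a median log2 fold change of 0.63. Acta2, smooth muscle actin, was at 15.00, 19.23 and 8.38 CPM in uninjured skin, 116.80 and 36.56 CPM at day 3, and 113.55, 264.82 and 70.91 CPM at day 7. It rose 10.4-fold (edgeR adjusted p = 0.00848), with all wound libraries above all uninjured ones. Tagln, an actin-binding protein of smooth muscle, rose 13.6-fold, Cnn1, calponin, 5.74-fold, and the regulatory light chain Myl9 4.08-fold (adjusted p = 0.0421). Enteric smooth muscle actin, Actg2, rose 8.08-fold to 7.12 ± 5.87 CPM, Smtn, smoothelin, 3.26-fold, and the integrin chain Itga8 8.06-fold to 1.97 ± 1.00 CPM. Itga8 was at only 0.12, 0.37 and 0.14 CPM in uninjured skin, so that the size of its fold is poorly known. The genes that fell were Des (desmin), Synpo2 and the tropomyosins Tpm1 and Tpm2, by 1.83, 1.47, 1.47 and 1.78 on the log2 scale. These 4 are also expressed in skeletal muscle, whose markers were lower at day 7 (12 of 14 called lower, median -2.43). The part of muscle RNA in the values of these 4 genes was not tested. Srf (log2 -0.28, adjusted p = 0.511) and its coactivators Mrtfa (0.74) and Mrtfb (0.53), which drive smooth muscle genes, did not pass, and Myocd was too low to be tested.

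Among 22 pericyte and mural partners, 8 rose and none fell at day 7, with a median log2 fold change of 2.26. Pdgfrb, the receptor by which PDGF-B holds pericytes to vessels, was at 3.05, 8.21 and 7.22 CPM in uninjured skin, 10.69 and 21.81 CPM at day 3, and 41.55, 32.57 and 12.10 CPM at day 7, a 4.62-fold rise at day 7 (edgeR adjusted p = 0.0260). Anpep, an aminopeptidase of pericytes and fibroblasts, rose 7.81-fold, the transcription factors Tbx18 and Tbx2 7.07-fold and 4.97-fold, and the cation channel Trpc6 15.2-fold. Gucy1a1, the alpha subunit of the nitric oxide receptor, rose 8.48-fold to 6.65 ± 3.64 CPM, the connexin Gja4, also endothelial, 6.30-fold, and Cd248, a surface protein shared with fibroblasts, 6.34-fold. Uninjured levels were 0.12, 0.49 and 0.72 CPM for Trpc6 and 1.71, 0.61 and 0.43 CPM for Tbx18. Those of Gucy1a1 were 1.46, 0.80 and 0.00 CPM. Levels this low rest on few counts, so that the size of these folds is poorly known. Of the 22 estimates 17 were positive. Abundant genes of the list did not all differ between groups as Mcam did. Steap4 was at 133.58, 316.79 and 447.50 CPM at day 7 against 325.34 to 476.67 CPM in uninjured skin. Art3 was at 108.79, 152.29 and 255.49 CPM against 174.31 to 232.55 CPM. In both genes day 7 replicates 1 and 2 lay below every uninjured library, as for Mcam, and replicate 3 did not. At day 3 Steap4 was at 156.08 and 224.41 CPM and Art3 at 153.82 and 221.84 CPM. Among the genes with negative estimates, Ednra, an endothelin receptor, was at 10.08, 19.50 and 16.65 CPM at day 7 against 39.76, 24.80 and 33.36 CPM in uninjured skin (log2 -1.08, edgeR adjusted p = 0.120). Angpt1, the ligand of the endothelial receptor Tie2, was at 8.72, 22.11 and 28.39 CPM at day 7 against 46.35, 30.93 and 41.30 CPM (log2 -0.999, adjusted p = 0.128). The groups did not overlap in either gene, and neither passed.

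**Figure D3:**
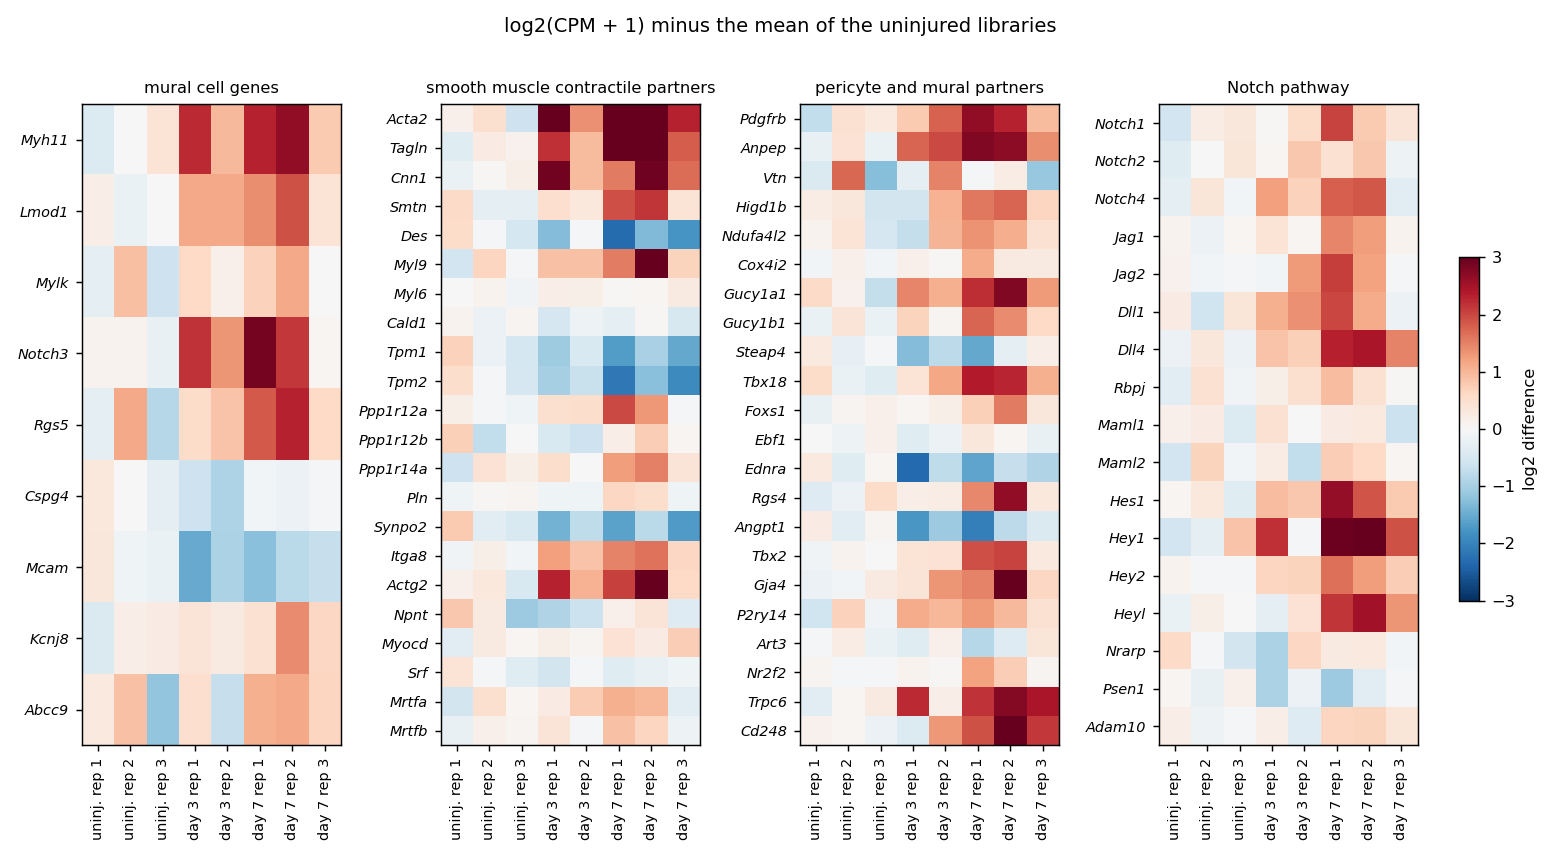
Colour gives log2(CPM + 1) in each library (columns) minus the mean of the 3 uninjured libraries, from -3 to 3, for the 9 mural cell genes and for their contractile, pericyte and Notch pathway partners (rows). Acta2 (113.55, 264.82 and 70.91 CPM at day 7 against 8.38 to 19.23 CPM in uninjured skin) and Hes1 are red in all day 7 libraries, and Des and Tpm2 are blue there.

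In the Notch pathway 5 of 17 tested genes rose at day 7 and none fell (median log2 fold change 1.33). They were the endothelial ligand Dll4 and the target genes Hes1, Hey1, Hey2 and Heyl, whereas the target Nrarp, at 2.26, 2.33 and 1.56 CPM at day 7 against 3.05, 1.65 and 0.87 CPM in uninjured skin, did not pass (log2 0.14, edgeR adjusted p = 0.910). Hes1, a repressor induced by Notch, was at 64.87, 38.63 and 17.25 CPM at day 7 against 10.12, 12.25 and 7.22 CPM in uninjured skin (4.05-fold, edgeR adjusted p = 0.0190). Heyl, a Notch target of mural cells, was at 6.57, 8.77 and 3.23 CPM against 0.49, 0.92 and 0.72 CPM (8.402-fold, adjusted p = 0.0142). Hey1 rose 14.5-fold, from 0.12, 0.37 and 2.02 CPM in uninjured skin to 11.89, 16.61 and 5.27 CPM at day 7. Hey2 had 2.26, 1.49 and 0.72 CPM at day 7 against 0.12, 0.00 and 0.00 CPM. With uninjured levels this low the size of both folds is poorly known. In day 7 replicate 3, where Notch3 lay in the uninjured range, Hes1, Hey1, Hey2 and Heyl were above all uninjured libraries. The receptors Notch1 (log2 1.33), Notch2 (0.46) and Notch4 (1.62) and the ligand Jag1 (1.10) did not pass, with adjusted p-values of 0.121, 0.472, 0.115 and 0.0704.

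Without day 7 replicate 3 the numbers of genes called higher were 10 of the contractile partners, 12 of the pericyte partners and 10 of the Notch pathway, with 3, 1 and 0 called lower. In that fit 4055 of all 18469 tested genes were called. When any 1 uninjured library or day 7 replicate 1 or 2 was left out, 2 or 3 contractile partners, 2 or 3 pericyte partners and 0 to 3 Notch pathway genes were called higher, and 0 to 3 contractile partners lower. Those fits called 314 to 809 genes in the whole table. At day 3 against uninjured skin edgeR called no gene of these lists, 7, 7 and 1 of them had an unadjusted p below 0.05, and DESeq2 called 3, 1 and 0. Of all tested genes 13% had such an unadjusted p, and DESeq2 called 430 of 17912. At day 7 against day 3 edgeR again called none, with 4, 3 and 4 at an unadjusted p below 0.05, and DESeq2 called 0, 1 and 1. The share of all tested genes at an unadjusted p below 0.05 was 11% here, and DESeq2 called 225 of 17912.

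Several of the 9 genes have close relatives that serve other muscle or other cells. Of 17 such relatives tested, which include Notch1, Notch2, Notch4 and Rgs4 of the lists above, 2 rose and 4 fell at day 7 (median log2 fold change 0.70). Without day 7 replicate 3, 6 were called higher and 4 lower, and without any 1 uninjured library or another day 7 library 1 was called higher and 1 to 4 lower. Myh9, a non-muscle myosin heavy chain, rose 4.95-fold (edgeR adjusted p = 0.00991), at 92.49, 72.22 and 25.99 CPM at day 7 against 14.51, 14.03 and 9.82 CPM in uninjured skin. Its relatives Myh10 (log2 0.66) and Myh14 (1.26) did not pass. Bcam, an adhesion molecule related to Mcam, rose 2.53-fold (adjusted p = 0.0449), whereas Alcam had a log2 fold change of -0.27. Mylk2, the kinase of skeletal muscle, fell by 3.13 on the log2 scale (adjusted p = 0.00682), Lmod2 of striated muscle by 2.39 and Kcnj11, the pore of the channel in striated muscle and beta cells, by 2.96. Cspg5 of neural tissue fell by 1.79. The estimates for Rgs4 (2.501), Rgs16 (1.90) and Rgs2 (0.70) were positive like that of Rgs5, and none passed (adjusted p = 0.0685, 0.0665 and 0.0874). Abcc8 had a log2 fold change of 3.26 (adjusted p = 0.107) and Lmod3 of -1.31 (adjusted p = 0.188), and Mylk3 and Mylk4 were too low to be tested.

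Ratios within a library do not depend on normalisation between libraries. Kcnj8 over Kcnj11, per kilobase of exon, had a log2 ratio of 2.31, 3.75 and 4.03 at day 7 against -2.21, 0.59 and -0.36 in uninjured skin. Mylk over Mylk2 had 2.85, 3.12 and 1.19 at day 7 against -2.48, 0.21 and -1.63. Lmod1 over Lmod3 had -1.73, -1.45 and -2.06 at day 7 against -5.98, -6.56 and -5.23. The uninjured values of this ratio rest on 4, 2 and 2 Lmod1 counts, and the Kcnj8 ratio of day 7 replicate 3 on 3 Kcnj11 counts, so that their size is poorly known. The groups did not overlap in any of the 3 ratios, and each gave p = 0.1 in a two-sided exact permutation test, the smallest p that 3 libraries against 3 allow. The differences of the means were 4.02, 3.69 and 4.18 on the log2 scale. At day 3 the Lmod1 ratio had the values -1.36 and -2.99, above the uninjured ones, while the Mylk and Kcnj8 ratios overlapped with them. A ratio moves with either of its genes. At day 7 Mylk (log2 0.53) and Kcnj8 (1.11) did not pass, while Mylk2 and Kcnj11 were called lower. For the remaining ratio Lmod1 was called higher and Lmod3 did not pass. The summed skeletal muscle markers were 885.3, 1615 and 1601 CPM at day 7 against 11048, 7164 and 5302 CPM in uninjured skin. The part of muscle RNA in these ratios was not tested.

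**Figure D4:**
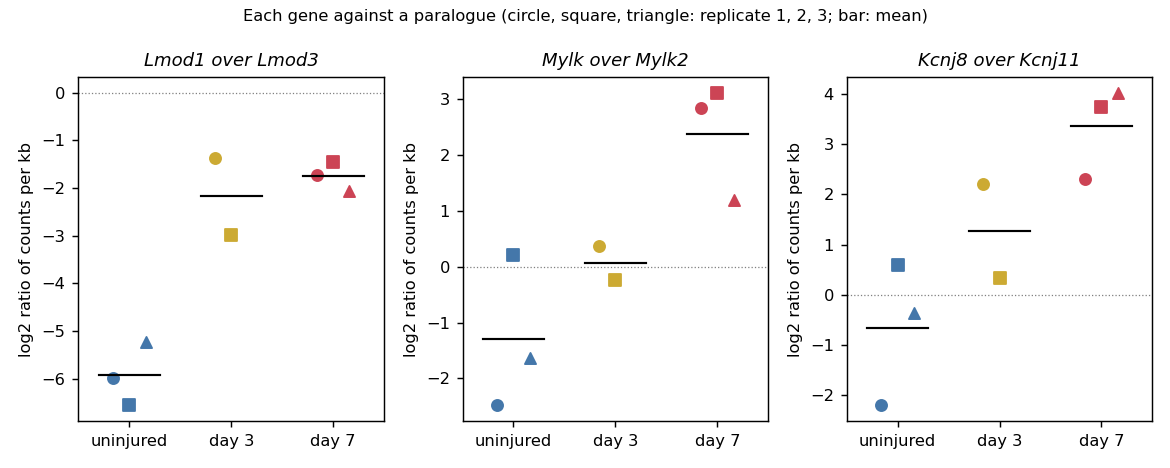
Log2 ratio of counts per kilobase of exon within each library (vertical axis, dotted line at equal levels) for Lmod1 over Lmod3, Mylk over Mylk2 and Kcnj8 over Kcnj11, with a bar at the group mean. At day 7 all 3 libraries lie above all uninjured libraries in each ratio, with means of -1.75 against -5.92, 2.39 against -1.30 and 3.37 against -0.66. The uninjured Lmod1 ratios rest on 2 to 4 Lmod1 counts.

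Markers of other cells also differed between day 7 and uninjured skin. Endothelial markers, 14 genes led by Pecam1 and Cdh5, summed to 620.3, 585.9 and 149 CPM at day 7 against 89.16, 184.8 and 97.48 CPM in uninjured skin, and 10 of 14 rose with none falling. Leaving out 1 uninjured library gave 1 to 4 such calls, leaving out day 7 replicate 1 or 2 gave 2 each, and leaving out day 7 replicate 3 gave 13. As for Notch3 and Rgs5, day 7 replicate 3 was the lowest of its group. Its sum lay below that of uninjured replicate 2, in which Cdh5 made up 74.66 CPM, yet in 9 of the 14 genes every day 7 library lay above every uninjured one. Adipocyte markers summed to 106713 CPM in day 7 replicate 3 against 83046 to 103469 CPM in uninjured skin, and that sum is mostly Cfd (55810.27 CPM) and Fabp4 (30924.91 CPM). In the same library Cidec (2510.35 against 3829.16 to 4020.04 CPM), Pnpla2 (1265.95 against 2029.72 to 2631.31 CPM) and Plin1 (782.16 against 848.76 to 876.05 CPM) lay below every uninjured library, as did Mcam. The other adipocyte markers did not: Fabp4 and Retn lay above the uninjured range there, and the rest lay within it. Adipoq, for example, was at 5176.65 CPM against 4908.20 to 5404.49 CPM. No gene of any marker list was at 0 in all libraries. The part of endothelial and adipocyte RNA in these results was not tested.

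Markers of glandular epithelium moved as well. Luminal markers, led by Krt8 and Krt18, summed to 1282, 1408 and 653 CPM at day 7 against 17.44, 32.52 and 14.15 CPM in uninjured skin, with 11 of 12 called higher. In glands such as the mammary gland, luminal cells are wrapped by myoepithelial cells, which also make Myh11, Acta2, Cnn1 and Mylk. Basal and myoepithelial markers, led by Krt5 and Krt14, summed to 2387, 1133 and 830.2 CPM against 1119, 909.1 and 1159 CPM (2 of 10 called higher, none lower), with 7 of 10 estimates positive. In number, the 2 calls became 0 when any 1 uninjured library or day 7 replicate 1 or 2 was left out, while 5 to 7 luminal markers were called higher in those fits. At day 3 the luminal sum was 1739 CPM in replicate 1 and 32.39 CPM in replicate 2. Myh11 (20.56 and 8.02 CPM), Cnn1 (28.38 and 6.63 CPM) and Notch3 (17.68 and 9.52 CPM) also had their higher value in replicate 1, and Lmod1 had 1.85 and 1.82 CPM. The basal and myoepithelial sum went the other way, with 810 CPM in day 3 replicate 1 and 2252 CPM in replicate 2. In 9 of the 12 luminal markers both day 3 libraries lay above every uninjured one, as in 16.9% of all tested genes. Among them Krt19 was at 362.13 and 4.28 CPM at day 3 against 0.72 to 1.29 CPM in uninjured skin. In day 3 replicate 2 the margin was small for Krt7 (3.21 against at most 3.18 CPM) and Epcam (9.62 against at most 9.06 CPM). Krt8 (0.64 CPM) and Krt18 (5.13 CPM) lay within the uninjured range there. The luminal sum of that library lay below that of uninjured replicate 2 (32.52 CPM). In day 3 replicate 2 as in day 3 replicate 1, Myh11, Notch3 and Lmod1 were above every uninjured library. The part of epithelial RNA in these values was not tested.

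**Figure D5:**
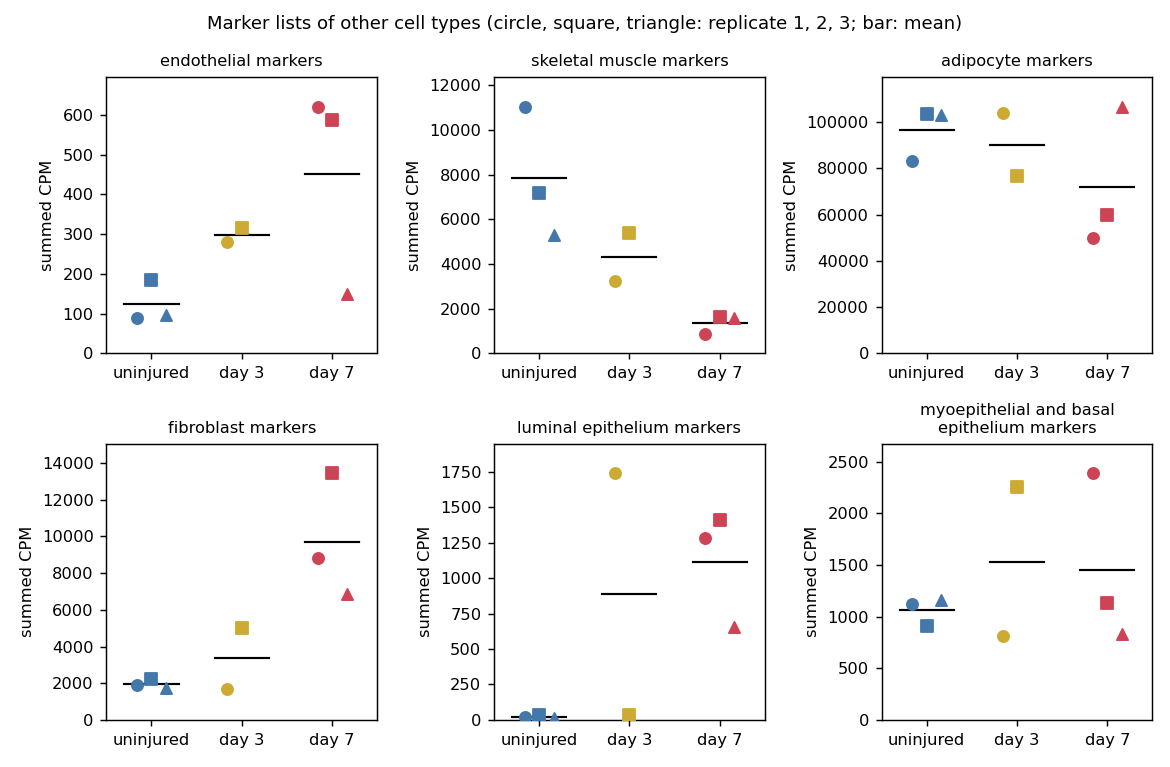
Summed CPM (vertical axes, linear, from 0) of marker lists of 6 other cell types in each library, with a marker shape per replicate and a bar at the group mean. Endothelial sums are high in day 7 replicates 1 and 2 (620.3 and 585.9 CPM), luminal epithelial sums in day 3 replicate 1 (1739 CPM) and all day 7 libraries, and skeletal muscle sums are lowest at day 7.

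Other lists were described in the same way at day 7 against uninjured skin. Of 12 fibroblast markers, led by Pdgfra and Col1a1, 8 rose and none fell (median log2 1.93), of 12 macrophage markers, led by Adgre1 and Cd68, 3 rose (median 1.78), and of 12 adipocyte markers 1 fell (median -0.67). DESeq2, the fit of only the groups compared and the fits without either day 3 library called 8 macrophage markers higher, and the fits without 1 uninjured library or day 7 replicate 1 or 2 called 0 to 4. In those leave-outs 5 to 7 fibroblast and 0 adipocyte markers were called, and without day 7 replicate 3 it was 7 macrophage markers as higher, 9 fibroblast markers as higher and 8 adipocyte markers as lower.

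The 9 genes did not share 1 profile over the 8 libraries. Likeness was measured as the root mean square difference between profiles of log2(CPM + 1), each centred on its own mean over the libraries. Myh11 and Notch3 differed by 0.49 log2 units, and 126 tested genes lay closer to Myh11 than Notch3 did. The smallest difference among the 9 was that of Cspg4 and Mcam, at 0.45, but the Cspg4 profile itself varied by only 0.362 about its mean. By rank among tested genes this pair was not close, with Mcam at rank 5119 from Cspg4 and Cspg4 at rank 2197 from Mcam. Notch3 was at rank 127 from Myh11. The 5 genes closest to Myh11 were Agtr1a (0.26), Slc26a10, Emcn, Cyb561 and Lrfn4 (0.29), and those closest to Rgs5 were Bdh2 (0.24), Gng11, Pde3a, Ccbe1 and Itpripl2 (0.28). Closest to Notch3 were Gm37474 (0.24), Etl4, Cytip, Kif26a and Itpkb (0.32). Mcam lay nearest to Cast (0.081), Entpd4, Dcun1d4, Twist1 and Itga7 (0.17), and Lmod1 to Gm46224 (0.17), Slc29a1, Bcam, BC034090 and Sh2d3c (0.19). The nearest genes were Dis3 (0.13), Trove2, AU040320, Ccpg1os and Aatk for Cspg4, Gm3364 (0.078), Gdf15, Iglon5, Bcl2a1b and Pi4kb for Kcnj8, Arhgap42 (0.23), Noct, Dio2, Rap1gap and Tgfb2 for Abcc9, and Mybl1 (0.18), Lgi1, Gm30551, Zfp729b and St8sia4 for Mylk. These differences describe 8 libraries that share group and depth and carry no test.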

How the data were processed

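The authors deposited raw read counts per gene, with 1 column per library and no normalisation. Per the file headers, featureCounts 2.0.8 made them. The submitters' processing notes list STAR 2.7.10b, DESeq2 and mm10. How strand and multi-mapping reads were handled was not given in the sources used here, and reads of overlapping genes are uncertain. Among the 9 genes this touches mainly Mcam, which shares 17 bases with Gm10687 (82 to 356 counts per library). Only 1491 of the 52093 identifiers found in GENCODE M21 (GRCm38) had the same start there, so coordinates are those of the table and their build is not settled. Symbols came from that annotation for 52093 of 53700 identifiers, and all 181 listed genes matched.

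Counts were filtered at edgeR's minimum count of 10, normalised by TMM and fitted with edgeR 4.0.16 (R 4.3.3) with 1 mean per group over all 8 libraries (5 residual degrees of freedom), two-sided, with Benjamini-Hochberg adjustment at 0.05. Each standard error is the log2 fold change over the square root of F. Libraries held 5308959 to 17751689 counts, and 3 counts, below which a level is poorly known, are 0.184 to 0.617 CPM. The procedure was tested on simulated data. Alternatives were other scalings, DESeq2 1.42.0, other filters, only the groups compared, a replicate block and each library left out.

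The members, lists and tests were chosen with earlier results of these data known. Named were all 9 genes, partner genes that passed and others of those lists as examples chosen after their values were seen, every tested paralogue, the first markers of each list, and the 5 genes nearest in profile.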

Additional observations from a re-analysis of the deposited data

How the results depend on the processing

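At day 7 against uninjured skin 1431 genes and 3 of the 9 mural genes were called. DESeq2's test called 2602 and 5, no filter 3156 and 5, and a fit with the replicate number as a block (replicate block) 2131 and 5, adding Rgs5 and Mcam. Leaving out 1 library gave 314 to 4055 genes and 0 to 5 of the 9.

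At day 3 against uninjured skin 2 genes and none of the 9 were called. DESeq2 called 430 genes and 2 of the 9, no filter 926 and 3, a minimum count of 30 and a fit of only the groups compared 0 genes each, the replicate block 7, and fits without 1 library 0 to 150.

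At day 7 against day 3, 16 genes were called (12 higher and 4 lower). Upper-quartile scaling gave 26 (15 higher and 11 lower), DESeq2 225, no filter 572, the replicate block 126, and leaving out 1 library 5 to 34. None of the 9 was called in any of these.

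Upper-quartile scaling moved the median of all genes at day 3 against uninjured skin to a log2 value of 0.13, where the main value is 0.02. Of single-gene values under alternatives, 355 kept direction and call, 17 lost and 19 gained a call, and 10 changed sign, all in uncalled results with 1 library left out. At day 7 against uninjured skin this was Cspg4 without uninjured replicate 1 (0.05, leave-one-out range -0.26 to 0.05). At day 3 it was Abcc9 without uninjured replicate 2 (0.32) or day 3 replicate 2 (0.29, range -1.24 to 0.32) and Mylk without uninjured replicate 3 (-0.05) or day 3 replicate 1 (-0.02, range -0.05 to 0.88). At day 7 against day 3 it was Myh11 without day 3 replicate 2 (-0.12, range -0.12 to 1.22), Notch3 without that library (-0.08) or day 7 replicate 1 (-0.41, range -0.41 to 0.80), and, without day 7 replicate 2, Lmod1 (-0.22, range -0.22 to 0.76) and Mylk (-0.003, range -0.003 to 0.56). The causes were not tested. In fits with 1 day 3 library the lone library is assumed to vary like the other groups.

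Whether replicate numbers pair the libraries was not settled. Same-numbered libraries of different groups had correlations of -0.074 to 0.203 in their deviations from the group means. Not every library correlated best with its own number. Deviations from means of 2 or 3 libraries depend on each other, so that these correlations cannot decide the question. Depth limits Lmod1 most, with 2 to 4 counts per uninjured library.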
